A study of Homo sapiens with 3 samples.

Results

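The 5 genes of the Ikaros family, IKZF1 to IKZF5, were read for H3K27ac and H3K4me3 in KBM7, a human chronic myeloid leukaemia line that is near-haploid, in its wild-type state. They were chosen by name and are 5 of the 19974 coding genes of the autosomes and the X chromosome. The peaks taken for each gene are those that touch its hg38 record extended by 5 kb on either side, here called its window. The 5 windows hold 95 of 96659 H3K27ac peaks and 28 of 36951 H3K4me3 peaks, and 3 super-enhancers of the deposited table name or overlap a member. The series has 3 libraries of cells grown in IMDM with serum: H3K27ac (Abcam ab4729), H3K4me3 (Millipore 07-473) and input. With 1 library per antibody there is no replicate error and no test between conditions, and every interval below is a 95% interval that covers counting error only.

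Ikaros family proteins are zinc finger transcription factors: fingers near the amino end bind DNA and a pair of fingers at the carboxyl end joins the proteins to each other. IKZF1 encodes Ikaros, which is needed for lymphoid development and is a tumour suppressor in acute lymphoblastic leukaemia. IKZF2 encodes Helios, best known from regulatory T cells and also present in blood progenitors, and IKZF3 encodes Aiolos, a factor of maturing B cells. IKZF4 encodes Eos, a partner of FOXP3 in regulatory T cells, and IKZF5 encodes Pegasus, the most distant member, which is linked to platelet formation. H3K27ac marks active promoters and enhancers, and H3K4me3 marks mainly promoters.

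The sequence just upstream of the outermost RefSeq start is shown for the 4 members with a listed start, because the intervals described next are set against these starts. Capitals mark GGGAA or its reverse complement TTCCC, the core that Ikaros proteins are known to bind. The stretches come from RefSeq (GRCh38.p14) and are written 5′ to 3′ in the direction of the gene. For IKZF1 the stretch is chr7:50304466-50304715 on the plus strand, for IKZF2 chr2:213152457-213152706 on the minus strand, and for IKZF4 chr12:56007254-56007503 on the plus strand. For IKZF5 it is chr10:123008796-123009005 on the minus strand, the 210 bases that lie between the starts of IKZF5 and of its neighbour ACADSB.
IKZF1: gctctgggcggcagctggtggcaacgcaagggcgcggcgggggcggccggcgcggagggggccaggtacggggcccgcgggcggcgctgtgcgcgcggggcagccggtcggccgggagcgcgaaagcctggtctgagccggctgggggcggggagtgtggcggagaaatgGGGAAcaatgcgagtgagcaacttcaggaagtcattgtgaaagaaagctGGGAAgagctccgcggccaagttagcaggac
IKZF2: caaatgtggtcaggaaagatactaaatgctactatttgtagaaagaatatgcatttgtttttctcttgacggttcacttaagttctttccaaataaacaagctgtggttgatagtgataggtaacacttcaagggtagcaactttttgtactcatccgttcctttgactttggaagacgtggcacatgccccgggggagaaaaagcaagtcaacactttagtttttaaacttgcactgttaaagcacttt
IKZF4: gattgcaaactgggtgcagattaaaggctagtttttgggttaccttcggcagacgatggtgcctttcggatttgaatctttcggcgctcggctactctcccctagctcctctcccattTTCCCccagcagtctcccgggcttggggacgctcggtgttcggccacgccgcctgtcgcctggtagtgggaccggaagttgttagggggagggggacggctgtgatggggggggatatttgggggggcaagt
IKZF5: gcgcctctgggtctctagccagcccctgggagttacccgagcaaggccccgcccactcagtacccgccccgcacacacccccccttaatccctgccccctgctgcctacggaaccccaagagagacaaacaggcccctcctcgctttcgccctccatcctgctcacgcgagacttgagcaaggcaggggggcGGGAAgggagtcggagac
The IKZF1 stretch holds 28 CG dinucleotides in 250 bases, against a median of 11 over the same window of 34943 listed starts (percentile 85.9). The IKZF2 stretch holds 4 (percentile 34.4) and the IKZF4 stretch 15 (percentile 59.2). The bases upstream of the outer IKZF2 start were thus below the median in CG, and those upstream of the outer IKZF1 start well above it. Bases downstream of the starts were not counted, and upstream of the IKZF1 start at 50308700 the count was 3 (percentile 29.4). Searched on both strands, GGGAA occurs at 2 places upstream of IKZF1, at 1 upstream of IKZF4 and at 1 upstream of IKZF5, and not in the IKZF2 stretch. It is a common string, held by 59.0% of all 250-base windows. TGTGGT, the core of a RUNX site, occurs at 2 places upstream of IKZF2 and is held by 11% of windows. CGGAAG, an ETS core, occurs once upstream of IKZF4 and is held by 16.4% of windows. AGATAA, which GATA1 and its relatives bind, is held by 9.19% of windows but by none of the 250 bases upstream of the 4 outer starts. Among the inner starts it occurs only upstream of the IKZF1 start at 50319048, at 2 places. These matches describe letters only, and no factor was measured.

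The family was not marked alike. IKZF1 and IKZF2 carried many peaks along the gene and super-enhancers, IKZF4 and IKZF5 carried peaks inside the record at their starts and nowhere else, and IKZF3 had no H3K27ac peak inside its record. The windows of IKZF1 and IKZF2 held 23 and 65 H3K27ac peaks, those of IKZF3, IKZF4 and IKZF5 held 1, 4 and 2, and the median protein-coding gene held 2. H3K27ac covered 27.8% of the IKZF2 window, 25.4% of that of IKZF1, 16.3% of that of IKZF4, 9.64% of that of IKZF5 and 1.68% of that of IKZF3, against a median of 4.64% over all genes. The H3K4me3 peaks numbered 14 at IKZF1, 8 at IKZF2, 2 at IKZF3, 3 at IKZF4 and 1 at IKZF5, against a median of 1. The lead of IKZF1 over IKZF2 in H3K4me3 peaks rests on weak ones, since in the top 50% of the list by fold IKZF1 had 1 and IKZF2 had 2. Of the 4 H3K27ac peaks of IKZF4 2 touched the record, as did 1 of the 2 of IKZF5 and 0 of the 1 of IKZF3. Of the H3K4me3 peaks 2 of the 3 of IKZF4 and 1 of the 2 of IKZF3 touched it. The covered shares of the windows include the peaks outside the records. Per 100 kb of window IKZF2 had 39.9 H3K27ac peaks (percentile 95.7 of all genes) and IKZF1 had 20.6 (83.4), so both stayed above the median of 5.22 once the count was divided by length.

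**Figure D1:**
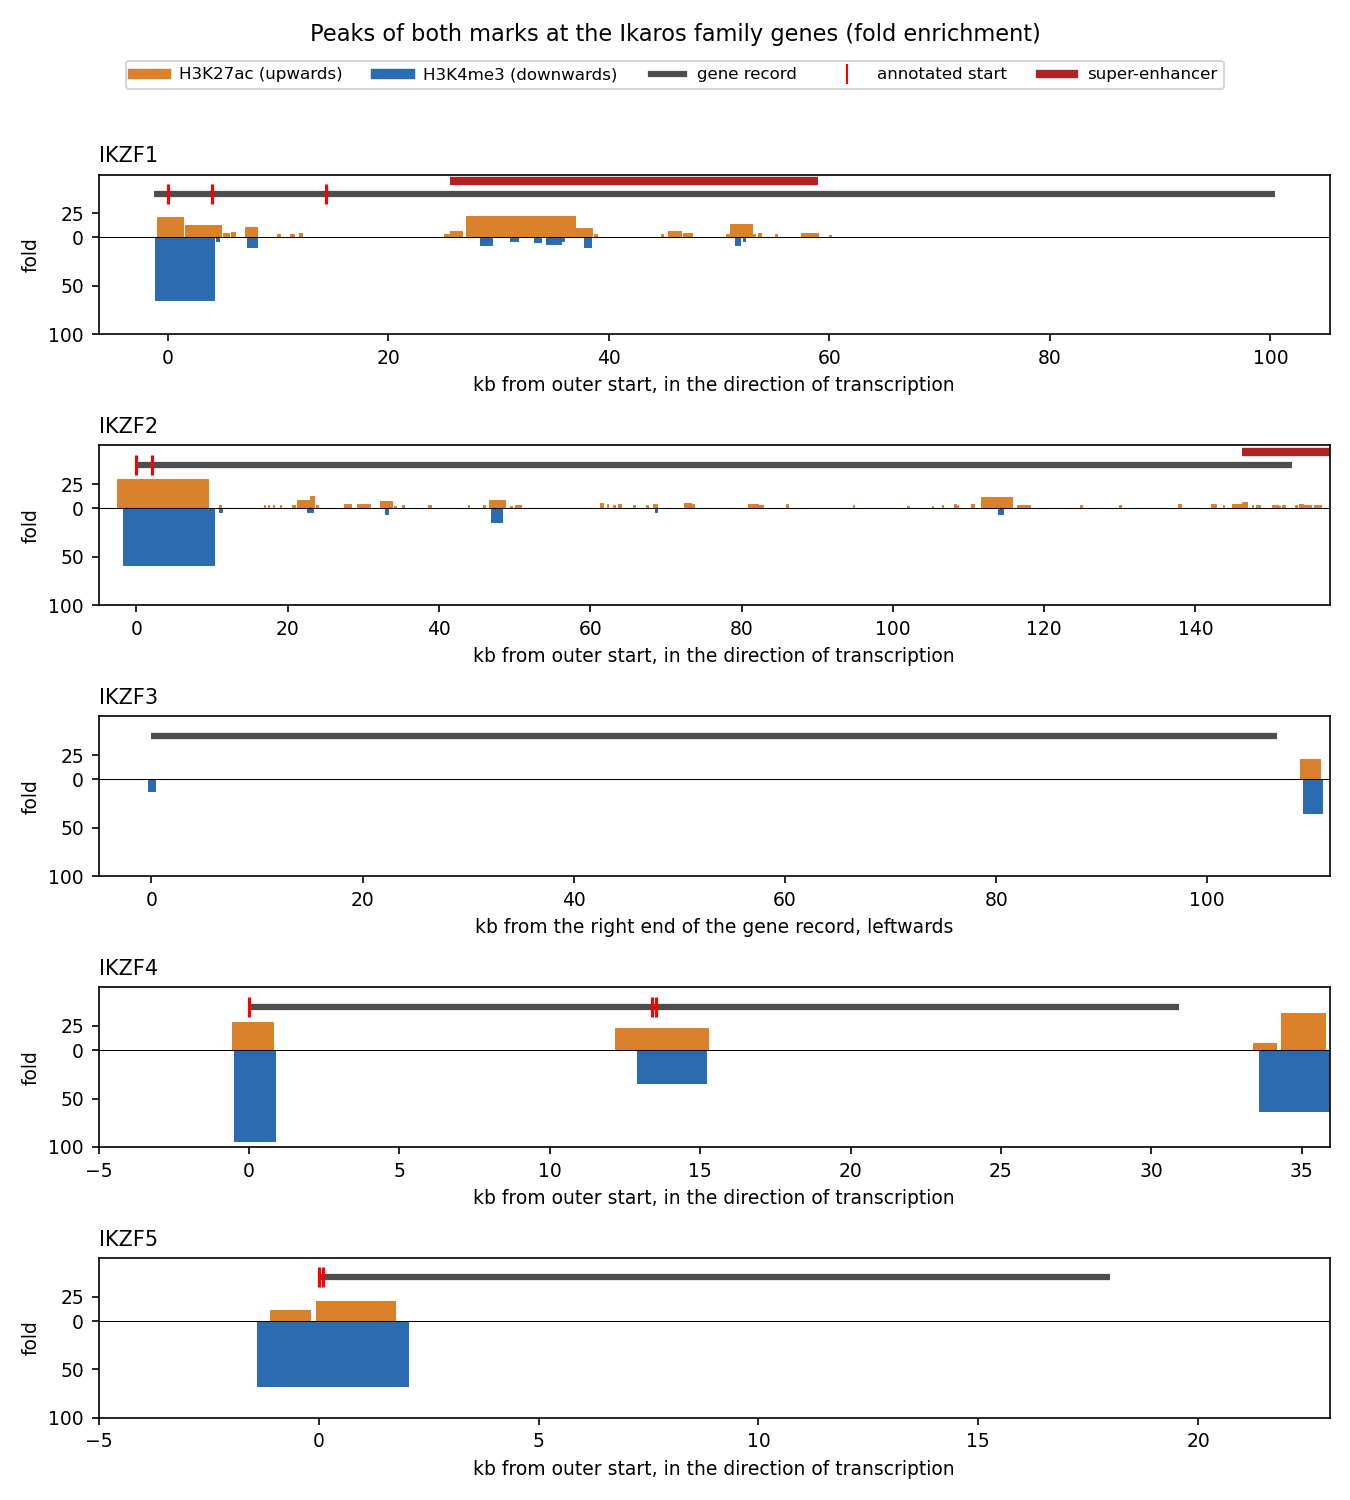
Peaks in the 5 gene windows, drawn to scale along each gene in kb from its outer start (for IKZF3 from the right end of its record, leftwards). Bars give the fold enrichment of H3K27ac upwards and H3K4me3 downwards, with gene records in grey, annotated starts in red and super-enhancers in dark red; the marks spread along IKZF1 and IKZF2, sit at the starts of IKZF4 and IKZF5, and are nearly absent from IKZF3.

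Both marks lay within 1 kb of an end or a listed start at 4 of the 5 genes (IKZF1, IKZF2, IKZF4 and IKZF5), and the same holds for 62.9% of all protein-coding genes. H3K4me3 was there at all 5, against 69.6% of genes, and H3K27ac at 4, against 65.4%. IKZF3 had H3K4me3 without H3K27ac, as did 6.68% of genes. Having both marks is the usual state of a gene in these cells, so the presence of the marks did not set the family apart. The strength of H3K4me3 at these places was ordered IKZF4, IKZF5, IKZF1, IKZF2 and IKZF3. Fragments are the DNA pieces piled up at a peak's summit, solved from the deposited values, and the fold, which is the authors', sets them against an expected background. The summits held 278 fragments (interval 246.3 to 312.7) at IKZF4, 261 (230.3 to 294.7) at IKZF5, 250 (220.0 to 283.0) at IKZF1, 235 (205.9 to 267.0) at IKZF2 and 36 (25.2 to 49.8) at IKZF3. The intervals of neighbours in this order overlap except between IKZF2 and IKZF3. Even the ratio of IKZF4 to IKZF2, the ends of the upper group, had an interval that includes equality (1.18, 0.991 to 1.41), whereas IKZF3 had 0.153 times the fragments of IKZF2 (0.105 to 0.218).

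For H3K27ac at the ends and starts the order was another. IKZF2 led with 170 fragments (145.4 to 197.6), followed by IKZF4 with 112 (92.2 to 134.8), IKZF1 with 108 (88.6 to 130.4) and IKZF5 with 106 (86.8 to 128.2). The last 3 overlap in their intervals. The summit of IKZF2 held 1.57 times the fragments of IKZF1 (1.23 to 2.02), 1.52 times those of IKZF4 (1.19 to 1.94) and 1.60 times those of IKZF5 (1.25 to 2.06). The authors' fold enrichment divides by an expected background that differs between places, 2.87 at IKZF4 and 4.22 to 4.55 at IKZF1, IKZF2 and IKZF5. By fold, therefore, IKZF2 (30.8) and IKZF4 (29.2) stood close together above IKZF1 (20.9) and IKZF5 (20.5). Among 13069 genes with H3K27ac at an end or start, whose median fold was 23.2, these are percentiles 75.6, 70.7, 42.3 and 40.9.

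**Figure D2:**
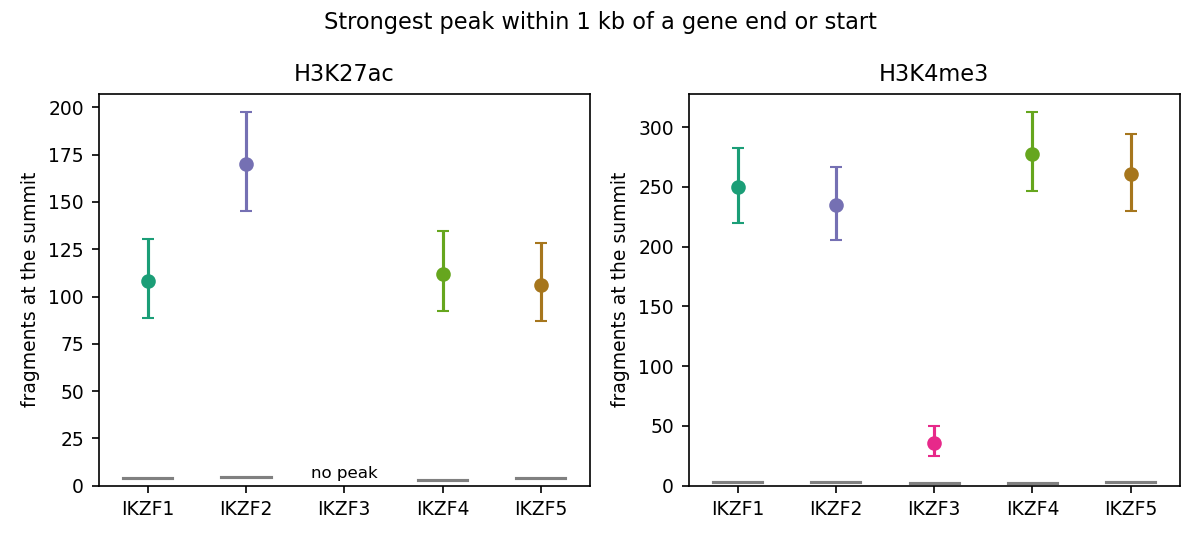
Fragments at the summit of the strongest peak within 1 kb of a gene end or start, with exact Poisson intervals as bars and the expected background as grey lines, for H3K27ac (left) and H3K4me3 (right). IKZF2 stands highest for H3K27ac, and for H3K4me3 IKZF3 stands far below the other 4, which overlap.

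IKZF2, the Helios gene, had one of the broadest H3K4me3 domains in these cells. The gene record spans 152.8 kb of chromosome 2 (hg38, 212999698 to 213152456), is read from the minus strand and has listed starts at 213152456 and 213150437, 2019 bp apart. A single H3K4me3 interval of 12027 bp (213142183 to 213154209, fold 58.8) covered both starts and ran some way into the gene. It was number 7 by width of all H3K4me3 intervals and number 11 among the 13905 genes with the mark at an end or start, whose median width was 2599 bp. Its fold was below the median of those genes (63.3, percentile 41.8), so the interval was wide without being especially high. An H3K27ac interval of nearly the same extent, 12016 bp (213142974 to 213154989), was number 100 by width of that list. Its summit lay 176 bp and that of H3K4me3 214 bp inside the outer start.

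Beyond the start the IKZF2 gene carried many small acetylated sites. Of the 65 H3K27ac peaks in the window 57 had no H3K4me3, with a median fold of 3.73 and a median width of 298 bp, and 50 lay below the median fold of the whole list (4.47). The weakest had a fold of 2.3, with 18 fragments over an expected 7.25. Stronger sites stood out among them. The peak 23.1 kb from the outer start (213128922 to 213129501) had 64 fragments and a fold of 12.8, the one at 113.4 kb (213036754 to 213040740) was 3987 bp wide with 62 fragments and a fold of 11.4, and the one at 48.1 kb (213103746 to 213105861) had 45 fragments and a fold of 8.91. All 3 also carried H3K4me3. At 47.9 kb that mark reached 54 fragments and a fold of 14.5 over 1563 bp (213104068 to 213105630), far from any start listed for the gene. The other 2 had weak H3K4me3, with folds of 5.64 at 114.2 kb and 3.69 at 23.2 kb.

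IKZF1, the Ikaros gene, had its strongest acetylation not only at the start but also well inside the gene. Its record spans 101.6 kb of chromosome 7 (50303455 to 50405101), lies on the plus strand and has listed starts at 50304716, 50308700 and 50319048. An H3K4me3 interval of 5270 bp (50303603 to 50308872, fold 64.4) covered the first start and the next, and its width was at percentile 95.2 of genes with the mark. Its summit lay 355 bp upstream of the first start, and the H3K27ac summit 266 bp upstream of it. The start at 50308700 lay in a separate H3K27ac interval of 3229 bp. The summit of that interval held 61 fragments (46.7 to 78.4, fold 12.4). It lay 1985 bp past the first start, which was the listed start nearest to it, so these values do not describe the start at 50308700 itself. Around the start at 50319048 no peak of either mark lay within 1 kb.

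An H3K27ac interval of 9887 bp inside IKZF1 (50331734 to 50341620), with its summit 34.3 kb past the first start, held 113 fragments (93.1 to 135.9, fold 21.9). The peak at the first start held 108 fragments, and the ratio of 1.05 (0.797 to 1.37) does not separate them. By width the internal interval was number 181 of the whole list. The 8 H3K4me3 peaks within it had folds of 3.39 to 8.28, and the strongest H3K4me3 peak away from the starts, just beyond it, had a fold of 10.1 (50342464 to 50343113, 36 fragments). Another acetylated site at 52.2 kb (50355733 to 50357674) had 68 fragments and a fold of 14.1. The last 40.2 kb of the gene held no H3K27ac peak and the last 48.0 kb no H3K4me3 peak.

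IKZF4, the Eos gene, carried both marks at 2 separate sets of starts. Its record covers 30.9 kb of chromosome 12 (56007504 to 56038435) on the plus strand, with an outer start at 56007504 and inner starts at 56020905 and 56021043. At the outer start an H3K4me3 interval of 1361 bp had 278 fragments and a fold of 94.0, percentile 97.6 of genes with the mark and percentile 99.3 of the peak list. The expected background there was 1.97, close to the lowest of the list (1.92), and the width was modest. At the inner starts an interval of 2297 bp (56020409 to 56022705) had 98 fragments (79.6 to 119.4) and a fold of 33.9, 0.353 times the fragments of the outer one (0.277 to 0.445). For H3K27ac the inner and outer places differed less, with 86 fragments (68.8 to 106.2, fold 22.9) at the inner and 112 at the outer, a ratio of 0.768 (0.573 to 1.03). The inner H3K27ac interval was the wider one, with 3094 bp against 1352 bp. The strongest H3K27ac peak of the IKZF4 window, with 200 fragments and a fold of 38.5, lay outside the gene at the start of RPS26, a ribosomal protein gene 3.48 kb beyond its end.

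IKZF5, the Pegasus gene, carried both marks around its start, which lies beside that of ACADSB, a mitochondrial dehydrogenase gene read in the opposite direction. The IKZF5 record covers 18.0 kb of chromosome 10 (122990806 to 123008795) on the minus strand, and its outer start lies 211 bp from that of ACADSB. A single H3K4me3 interval of 3452 bp (123006753 to 123010204, 261 fragments, fold 67.3) covered both starts, at percentile 75.0 by width. H3K27ac was divided there into an interval of 1795 bp on the IKZF5 side (106 fragments, fold 20.5) and one of 902 bp on the ACADSB side (72 fragments, 56.3 to 90.7, fold 11.3). The side of IKZF5 held 1.47 times the fragments of the other (1.08 to 2.01). The 143 bp between these intervals (123008858 to 123009000) fall within the 210 bases printed above. None of these marks can be given to only one of the genes, and the rest of the IKZF5 record held no peak.

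IKZF3, the Aiolos gene, was nearly bare. Its record spans 106.6 kb of chromosome 17 (39757715 to 39864312), and no H3K27ac peak touched it, as for 31.4% of protein-coding genes. The one mark on the record was an H3K4me3 interval of 605 bp across its right end (39863993 to 39864597), with 36 fragments and a fold of 12.4. No start was listed for IKZF3, so whether this end is its start was not read from the annotation. Among the genes with H3K4me3 at an end or start this is percentile 5.29 by fold and 3.71 by width. The only peaks of both marks in the window lay beyond the left end, between IKZF3 and GRB7, at 39753616 to 39755577 for H3K27ac (93 fragments, 75.1 to 113.9, fold 20.7) and at 39753474 to 39755290 for H3K4me3 (122 fragments, 101.3 to 145.7, fold 34.7). That H3K27ac peak ends 2137 bp from the IKZF3 record, and no record of the annotation covers the place. The H3K27ac list reports only peaks that passed its cut-off, the weakest with 9 fragments, so weaker acetylation of IKZF3 would not be seen.

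**Figure D3:**
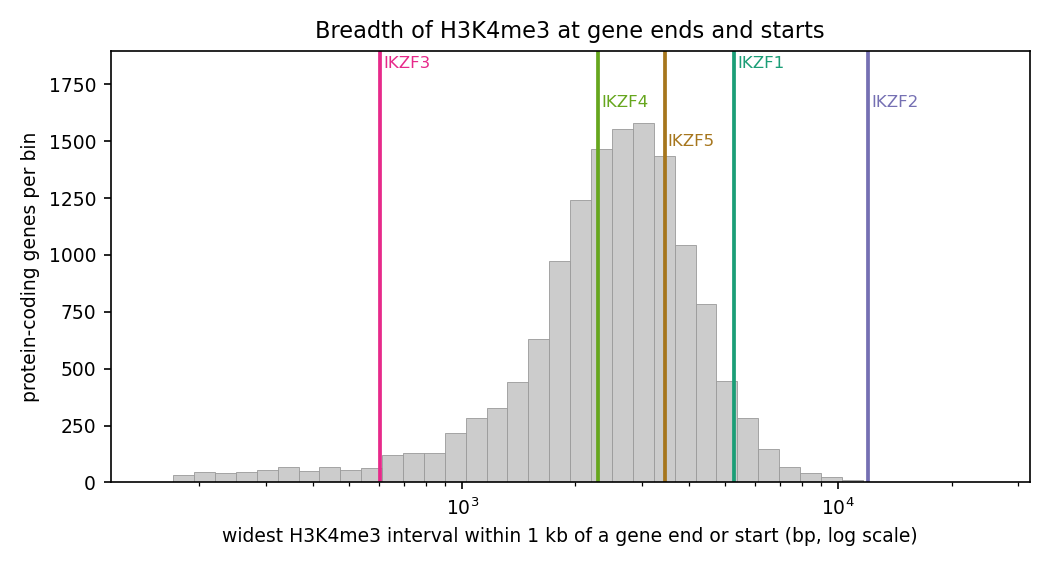
Width of the widest H3K4me3 interval within 1 kb of a gene end or start, in bp on a log scale, as a histogram over the 13905 protein-coding genes with the mark, with the 5 members as vertical lines. IKZF2 (12027 bp) lies at the far right, IKZF1 (5270 bp) in the upper tail, IKZF5 (3452 bp) and IKZF4 (2297 bp) in the bulk and IKZF3 (605 bp) in the lower tail.

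The marks went together unevenly along the family. Of the 28 H3K4me3 peaks 27 overlapped H3K27ac (96.4%, interval 82.3 to 99.4), the exception being the one at the right end of IKZF3, against 83.8% of the whole list. Of the 95 H3K27ac peaks 21 overlapped H3K4me3 (22.1%, 14.9 to 31.4), against 36.0% of the whole list, but IKZF2 holds 65 of the 95 and the share without it was 43.3% (13 of 30). By member the share was 12.3% at IKZF2 (8 of 65) and 26.1% at IKZF1 (6 of 23), and all the H3K27ac peaks of IKZF3, IKZF4 and IKZF5 overlapped. The H3K27ac peaks with H3K4me3 had a median fold of 12.4 and a median width of 1653 bp, and the 74 without it 3.79 and 298 bp. The whole list was split in nearly the same way, with median folds of 11.5 with H3K4me3 and 3.91 without. None of the 74 passed a fold of 6.52. Peaks of a gene come from 1 library and are not replicates. The intervals of these shares treat the peaks as independent, which neighbouring peaks of a gene may not be.

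**Figure D4:**
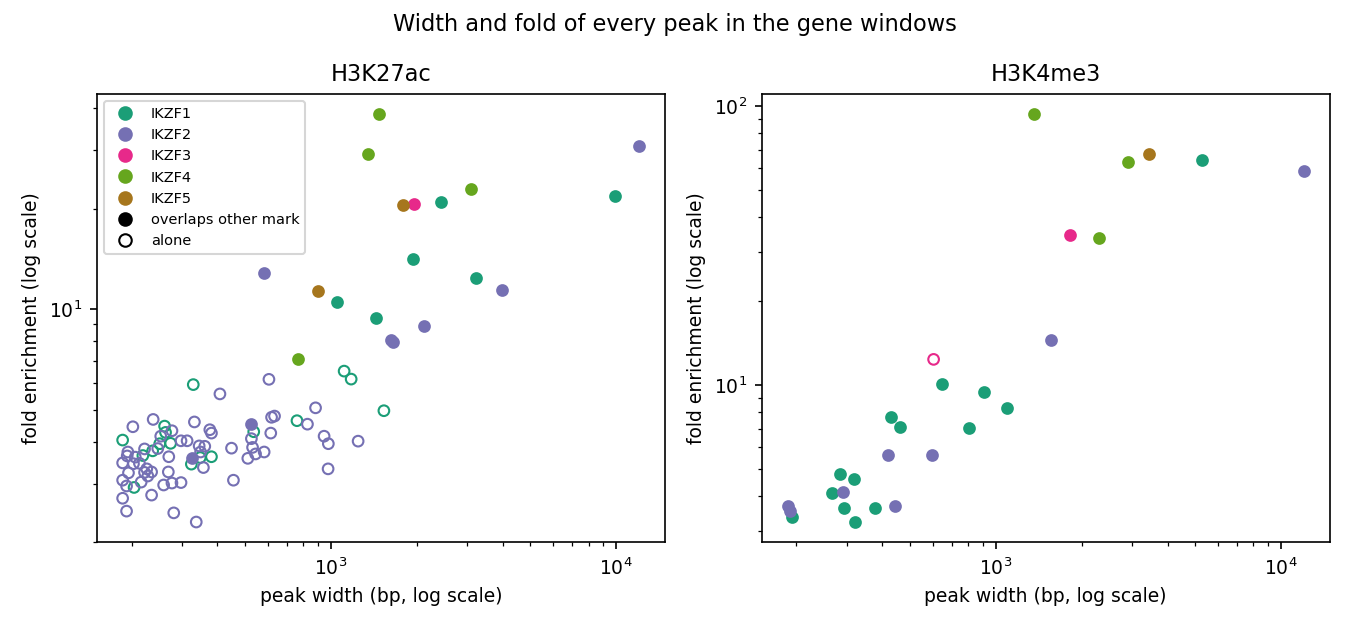
Width in bp and fold enrichment of the 95 H3K27ac peaks (left) and the 28 H3K4me3 peaks (right) of the 5 gene windows, both on log scales, coloured by gene and filled where the peak overlaps the other mark. H3K27ac peaks without H3K4me3 gather at low fold and small width and belong to IKZF1 and IKZF2, and the lone open H3K4me3 point is that of IKZF3.

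Super-enhancers, long regions that join neighbouring H3K27ac peaks, were assigned to IKZF1 and IKZF2 and to no other member. A super-enhancer was named for or overlapped 3.59% of all protein-coding genes, so 2 of 5 is above that share, but no test was made of that difference. IKZF2 was the target of 2 regions, as were 0.195% of genes counting those with more. Per the name of the table, the authors chose targets partly on expression, so a target is not independent evidence of activity. Taken as targets alone, both genes are among 2.25% of genes. The region of IKZF1 (chromosome 7, 50330301 to 50363711) lies wholly inside the gene, from 25.6 to 59.0 kb past the first start, and takes up 32.9% of the record. Those of IKZF2 lie at and beyond its far end. The longer one (chromosome 2, 212948168 to 213006304) covers only 4.33% of the record, at 146.2 to 204.3 kb from the outer start, and the shorter one (212901707 to 212921724) lies 78.0 kb outside the record.

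By the authors' difference of H3K27ac and input signal, the longer region of IKZF2 ranked 99 (within the top 18.6% of the table), the shorter one 373 (70.1%) and that of IKZF1 393 (73.9%). Their lengths were 58.1, 20 and 33.4 kb, against a median of 41.6 kb, and their ratios of H3K27ac to input signal were 7.02, 9.52 and 6.82, against a median of 8.11. By signal per base they ranked 231 (43.4%), 75 (14.1%) and 321 (60.3%), so the short region stood higher, and the longer region of IKZF2 lower, than by the total difference. The short region was built around an H3K27ac interval of 13989 bp (212904281 to 212918269, 123 fragments, fold 21.9), number 60 by width of the list and wider than the one at the IKZF2 start. The longer region held 37 H3K27ac peaks, of which 2 passed a fold of 10, namely 8352 bp with 159 fragments (212955831 to 212964182, fold 23.8) and 9272 bp with 150 fragments (212973327 to 212982598, fold 23.4).

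H3K4me3 separated the super-enhancer of IKZF1 from those of IKZF2. It covered 15.5% of the IKZF1 region, in 11 peaks with folds of 3.39 to 10.1, against 0.463% of the longer and 2.56% of the shorter IKZF2 region, with 1 peak each (folds of 4.77 and 4.36). The median over all super-enhancers was 14.7%. The 9272 bp interval of the longer region, whose fold of 23.4 is close to the median of genes acetylated at an end or start (23.2), overlapped no H3K4me3 peak. The longer region also overlaps LOC102725082, a long non-coding RNA gene, whereas the shorter one overlaps no gene record. Assignment to IKZF2 is the authors' and was not tested here.

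**Figure D5:**
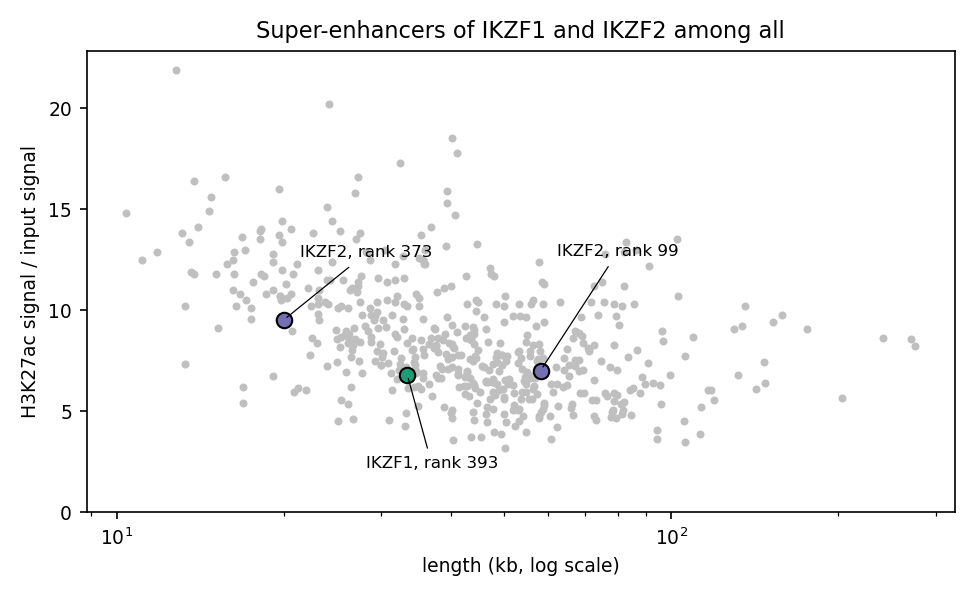
Length in kb (log scale) and ratio of H3K27ac to input signal of all super-enhancers in the deposited table, with the 1 region of IKZF1 and the 2 of IKZF2 marked with their rank. All 3 lie within the range of the others, the shorter IKZF2 region (20 kb, ratio 9.52) to the left and above the other 2.

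Genes whose proteins work with the family carried both marks at an end or start, where 62.9% of all genes did. All 13 genes of NuRD, the chromatin remodelling and deacetylase complex that Ikaros proteins recruit, had both, and CHD4, its ATPase, was a super-enhancer target (H3K27ac fold 41.8, H3K4me3 fold 95.5). So did all 5 other corepressors and remodellers, such as SIN3A (26.1 and 56.1) and CTBP2 (37.0 and 56.9). All 5 genes of the cereblon ubiquitin ligase, through which thalidomide analogues lead to the breakdown of Ikaros and Aiolos, had both, with CRBN at 21.6 and 81.7. The 6 genes for casein kinase 2 and protein phosphatase 1, which add and remove phosphates on Ikaros, also had both, as at CSNK2A1 (35.1 and 61.2). The median H3K4me3 fold was 75.4 for the NuRD list, 56.9 for the other corepressors, 80.7 for the ligase list and 71.5 for the kinases and phosphatases, against 63.3 over the genes with the mark at an end or start.

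Of the lymphoid genes tied to Ikaros 11 of 16 had both marks, which is near the 62.9% of all genes. The median H3K4me3 fold over the 16, with genes lacking the mark at 0, was 14.8, against 50.6 over all genes counted in the same way. A low median was not particular to this list. Counted alike, the myeloid, T cell, B cell and erythroid marker lists had medians of 12.8, 10.0, 10.6 and 0. PAX5, the B cell identity factor, was a super-enhancer target (H3K27ac fold 37.4, H3K4me3 fold 44.7), and IGLL1, a surrogate light chain gene, overlapped a super-enhancer (26.1 and 18.3). CD79A (43.7 and 92.6) and IL2RA (10.4 and 16.8) also overlapped one. A super-enhancer was thus named for or overlapped 4 of the 16, against 3.59% of all genes, and this difference was not tested. Only 1 of the 16 was a target. The share was not particular to this list. In the marker lists of the next paragraph it was 2 of 8 myeloid and 2 of 7 B cell genes. Among T cell and erythroid markers it was 0 of 8 and 0 of 6. DNTT, the terminal transferase gene, VPREB1 and BLNK had neither mark, and IL7R and PTCRA had weak H3K27ac only (folds of 6.06 and 5.02). Of 4 Notch pathway genes NOTCH1, NOTCH3 and HES1 had both marks and DTX1 neither, a list too short to set against the share of all genes. Of the genes downstream of Ikaros and Aiolos in myeloma, MYC and PRDM1 had both, and IRF4 had H3K4me3 (fold 35.5) without H3K27ac. A peak at a gene end can belong to a neighbouring gene, which was not tested.

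The labelled cell type was checked against markers in the same way. Both marks were present at 6 of 8 myeloid markers, 5 of 8 T cell markers, 5 of 7 B cell markers and 1 of 6 erythroid markers. SPI1, the myeloid factor PU.1, had folds of 30.5 and 50.2 and CD33, a myeloid surface antigen, 30.6 and 47.5, while ELANE, the neutrophil elastase gene, had neither mark. MS4A1, the CD20 gene of B cells, and ZAP70, a T cell kinase gene, also had neither. Other lymphoid markers had both, with folds of 43.7 and 92.6 at CD79A of B cells and 32.1 and 54.9 at CD4 of T cells. The myeloid, T cell and B cell counts are near the 62.9% of all genes with both marks, so they do not tell the cell type.

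By 5 measures of the window (widest H3K4me3 interval, highest fold of each mark, number of H3K27ac peaks and share covered by H3K27ac) each member was compared with 10992 genes, those of at least 20 kb and the members. A distance of 0 would mean equal values. Genes near to IKZF1 were DOT1L and CCM2 (distances of 0.181 and 0.216), and those nearest to IKZF2 were ATP8B4, MEF2C and TAOK3 (0.290 to 0.447). ATP8B4 had 65 H3K27ac peaks and an H3K4me3 interval of 13864 bp, against 65 and 12027 bp at IKZF2. IKZF3 was nearest to C4orf51, C2orf78 and MRPS28, IKZF4 to NSFL1C, TXNDC15 and MAN2B1, and IKZF5 to ZDHHC24, SUPT7L and CCSAP. Among the members, IKZF1 and IKZF2 stood 1.13 apart, with 99 genes nearer to IKZF2 than IKZF1 was and 516 nearer to IKZF1 than IKZF2 was. IKZF4 and IKZF5 stood 1.03 apart, with 1374 genes nearer to IKZF4 and 3748 nearer to IKZF5. IKZF2 and IKZF3 were the farthest pair, at 4.61. All 5 measures of IKZF3 come from the peak pair outside its record, so its nearest genes and distances describe that place and not the gene. The measures of IKZF4 include the RPS26 start and those of IKZF5 the interval shared with ACADSB, and no shared function or control follows from likeness.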

How the data were processed

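From 1 H3K27ac, 1 H3K4me3 and 1 input library of KBM7 cells, the deposited data are a narrowPeak list for each mark and a super-enhancer table. The build was hg38, with Bowtie2 2.3.4 and bedtools 2.20.1 named in the submitters' processing notes. For the peak caller and the super-enhancer tool, no name is given in the sources used. The authors' lists give a fold enrichment (a ratio), the −log10 of p and q, a score and a summit offset. No H3K27ac peak has a −log10 q under 1.32 and no H3K4me3 peak one under 1.33. The authors' super-enhancer table gives total H3K27ac and input signal, per the file headers, with no stated scaling. Library totals are not given, so depth is known only through the fragments at summits.

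A whole-number pileup was solved for each peak from the deposited fold and −log10 p (tolerance 0.01), for 100% of peaks, after a check on simulated data. Its median is 21 fragments for H3K27ac and 39 for H3K4me3. Intervals are exact Poisson for fragments, exact conditional for ratios and Wilson for shares. Peaks overlap when they share at least 1 bp. Gene records and starts came from RefSeq (GRCh38.p14, the build of the files). For IKZF3 both ends of the record were used. Analyses ran in Python 3.11.15 with pandas 2.3.3, numpy 2.4.6 and scipy 1.17.1. The text names the 5 members, the strongest and widest peaks, the super-enhancers and neighbours of each, the 3 nearest genes by likeness (1 is not reported here), and examples of 7 partner lists and of the marker lists. Members, lists and rules were chosen with earlier results of these data known. No tests were planned or run. Windows, thresholds and overlap rules were varied.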

Additional observations from a re-analysis of the deposited data

How the results depend on the processing

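The count of 4 members with both marks at an end or start was 4 with 500 bp or 2 kb in place of 1 kb, with the top 50% of each list by fold and with a −log10 q of at least 5, and 5 anywhere in the window. The number of members with a super-enhancer was 2 by target or by overlap alone and 1 when at least 10% of the record had to be covered, since the IKZF2 regions lie at and beyond its end. With the top 50% of each list the windows held 33 H3K27ac and 9 H3K4me3 peaks, and 33.3% of these H3K27ac peaks overlapped H3K4me3. That share was 13.7% when H3K4me3 had to cover 50% of the H3K27ac peak and 43.3% without IKZF2, an alternative chosen after seeing the data. The gene record alone, 20 kb either side and the stricter q kept the other counts within 1.5 times: 86, 110 and 65 H3K27ac peaks and 26, 30 and 21 H3K4me3 peaks. With the stricter q IKZF2 had 40 H3K27ac peaks and IKZF1 18, and with the top 50% they had 15 and 11 peaks, so the lead of IKZF2 over IKZF1 narrowed when weak peaks were left out. For H3K4me3 the order turned with the top 50%, to 1 peak at IKZF1 and 2 at IKZF2, against 14 and 8 in the full list, and IKZF2 had 5 with the stricter q. On the gene record alone IKZF3 had 0 H3K27ac and 1 H3K4me3 peaks, IKZF4 had 2 H3K27ac peaks and IKZF5 had 1. With 20 kb either side IKZF3 had 2 and IKZF4 had 10 H3K27ac peaks, and IKZF5 had 2 H3K4me3 peaks. The remaining 27 of 40 such counts per gene stayed within 1.5 times. No paired analysis was possible because each antibody has 1 library and no test was made. Depth limits the weak peaks most: the lowest in the windows had 11 fragments, with an interval of 5.49 to 19.7.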
